A study of Homo sapiens with 6 samples.

Results

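The nuclear genes for the subunits of respiratory complex I were examined in SH-SY5Y cells that overexpressed ERRγ. They were taken as the protein-coding genes whose symbols are NDUFA, NDUFB, NDUFC, NDUFS or NDUFV followed by a number, plus NDUFAB1, and the NDUFAF assembly factors were left out. This rule found 38 of the 67060 genes in the count table, and it used no measured value. SH-SY5Y is a human neuroblastoma line, labelled here as neuronal progenitor. One group of 3 samples received 0.5 µl of an adenovirus named Ad CMV 3xFlag-Esrrg (here ERRg), in which the CMV promoter drives a Flag-tagged mouse Esrrg coding sequence. The 3 control samples received 0.5 µl of Ad CMV GFP, so both groups were infected and both expressed a CMV-driven transgene. RNA was collected after 24 h, depleted of ribosomal RNA and sequenced with a directional kit. GFP libraries carry the replicate numbers 1, 3 and 4, and ERRg libraries 2, 3 and 4. The labels do not say whether these were separate cultures, so p-values measure only the spread between these samples.

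Complex I takes electrons from NADH, passes them along iron-sulfur clusters to ubiquinone and pumps protons across the inner mitochondrial membrane. Its peripheral arm in the matrix carries the NADH and ubiquinone sites, and its membrane arm carries the proton channels. The hydrophobic core of the membrane arm is made by mitochondrial DNA (MT-ND genes), and all other subunits are made in the nucleus and imported. ERRγ is an orphan nuclear receptor whose family is known for binding genes of mitochondrial energy metabolism, and dopaminergic neurons are a cell type in which complex I loss has long been studied.

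Reads on genes numbered 24969759 to 29700980 in the GFP libraries and 26513620 to 40859666 in the ERRg libraries. ESRRG stood at 83.6, 90.4 and 86.9 CPM (the usual depth-scaled read count, here over reads on genes and with TMM factors) with GFP, and at 569.6, 772.2 and 777.6 CPM in ERRg replicates 2, 3 and 4. No overlap was seen, and the log2 fold change was 3.02 (SE 0.14, adjusted p = 6.3e-07). These are counts on the human gene, while the transgene is a mouse sequence. How many transgene reads they hold was not measured, so transgene and endogenous ESRRG cannot be told apart. The cells' label was checked against 13 markers of adrenergic neuroblastoma. HAND2, GATA3 and STMN2 each exceeded 100 CPM with GFP, while TH and CHGA had 0 counts in all 6 libraries. The GFP means of DBH and MYCN were 11.5 and 0.65 CPM. By the rule given below, MYCN (log2 fold change -3.27), DBH (-2.64), GATA2 (-1.08) and STMN2 (-0.68) were called lower and PHOX2A (0.81) higher. After a GC and length correction, STMN2 (-0.48) and PHOX2A (0.37) were not called. TH and CHGA were not checked for copies in the reference or for overlaps, so their 0 counts are not read as absent transcripts. The summed level of the 13 markers was 916 to 977 CPM with GFP and 657 to 852 CPM with ERRg, and 1 of the 11 tested was called higher and 4 lower. Of 10 fibroblast and Schwann cell markers, 0 were called higher and 4 lower. Among all tested genes 17.3% were called higher and 16.8% lower, and among tested protein-coding genes 25.9% and 12.4%. The sums of the fibroblast and Schwann cell markers were 3411 to 3541 CPM with GFP and 3057 to 3327 CPM with ERRg, mostly from COL3A1 with 2602 CPM ± 42.6 (SD, n = 3) with GFP. The part of these markers in the results below was not tested. In bulk RNA, fewer cells of a type and less RNA per cell cannot be told apart.

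Most nuclear subunits of complex I rose with ERRg. Of the 38 genes, 35 had enough counts to be tested. A called gene had a fold change of at least 1.5 and, in the quasi-likelihood test of edgeR, a Benjamini-Hochberg adjusted p below 0.05 over all 24500 genes tested. By this rule 30 of the 35 were higher, 0 were lower and 5 were not called. Among all tested genes 17.3% were called higher and 16.8% lower, and among tested protein-coding genes 25.9% were higher and 12.4% lower. Every ERRg library lay above every GFP library for 33 of the 35 subunits, against 27.8% of all tested genes and 41.9% of tested protein-coding genes. The median log2 fold change was 1.16, from -0.35 for NDUFV2 to 1.62 for NDUFB9. Over all tested genes the median was -0.10, and over protein-coding genes 0.12. With library size as the only scaling these medians were 0.82, -0.42 and -0.20, and 24 subunits were called higher and 1 lower. The share of all tested genes called under that scaling is not given here. At least a 2-fold rise was seen for 23 of the 30 called subunits, and a rise of 1.5 to 2-fold for the other 7.

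Summed over the 38 genes, the level was 1264, 1475 and 1381 CPM in GFP replicates 1, 3 and 4, and 2229, 3559 and 3594 CPM in ERRg replicates 2, 3 and 4. ERRg replicate 2 was thus above all GFP libraries and below the other two ERRg libraries. The same position was seen gene by gene for 32 of the 35 tested subunits. There replicate 2 lay between the highest GFP library and both other ERRg libraries. The share of all tested genes in this position is not given here. As a distance between libraries, chi-square per degree of freedom was 60.9 and 64.7 for ERRg replicate 2 against replicates 3 and 4. Between replicates 3 and 4 it was 6.64, and between GFP libraries 3.51 to 8.80. Relative to the GFP mean, the median subunit stood at 1.65 in replicate 2, 2.54 in replicate 3 and 2.52 in replicate 4. Counts on human ESRRG, which do not measure the mouse transgene by itself, were 6.55, 8.88 and 8.94 times their GFP mean in the same libraries. The coefficient of variation of a subunit had a median of 10.2% between GFP libraries and 22.7% between ERRg libraries. Without ERRg replicate 2 the median log2 fold change of the subunits was 1.46, and the count called higher over the 6 leave-one-out fits ranged from 29 to 31. The share of all tested genes called in those fits is not given here.

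**Figure D1:**
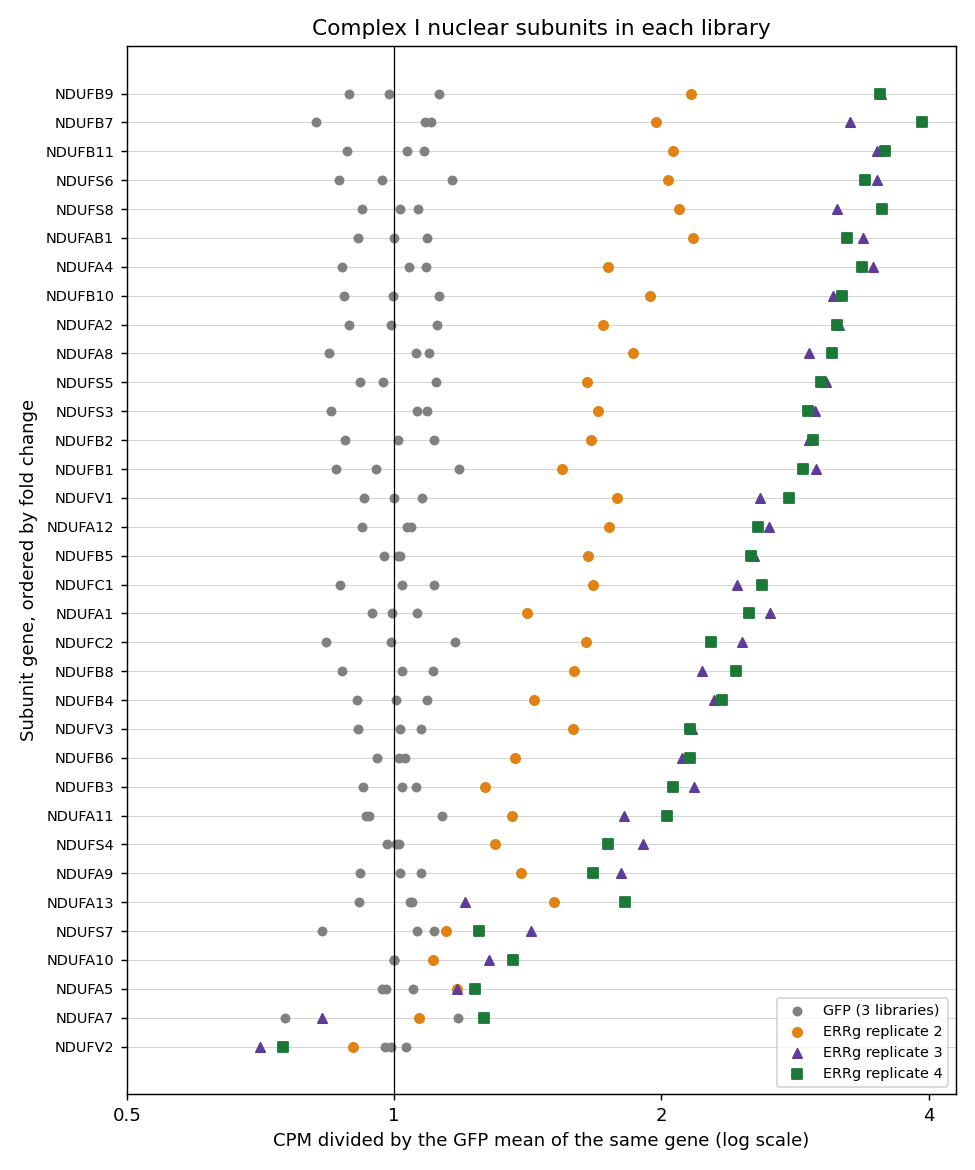
Each row is 1 of 34 tested subunit genes, and each point is 1 library, as its CPM divided by the mean of the 3 GFP libraries for that gene (log axis, 1 marked by the line). Grey points are GFP libraries and coloured points ERRg replicates 2, 3 and 4, with replicate 2 between GFP and the other ERRg libraries for 31 of them, and NDUFV2 at the bottom below its GFP mean in all 3.

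The libraries also differed in the reads that the authors' counting assigned to no annotated gene. These reads made up 51.3% to 52.2% of all reads with GFP, and 46.6%, 31.6% and 29.5% in ERRg replicates 2, 3 and 4, the reverse of the order of the subunit sums over the 6 libraries. When the fit held this share as a covariate, 10 of the 35 subunits were called higher, 34 had a positive log2 fold change, and the median was 0.50. In that fit 9.48% of tested protein-coding genes were called higher and their median was 0.024. The 10 genes were NDUFAB1, NDUFS8, NDUFB9, NDUFB11, NDUFS6, NDUFB10, NDUFB7, NDUFA8, NDUFV1 and NDUFA12, all of them among the 30. The share did not overlap between the groups, so this fit cannot tell it apart from the treatment. The part of this share in the rise was not tested. With curves for GC content and transcript length taken out, 30 subunits were called higher at a median of 1.27, and 21.4% of tested protein-coding genes were called higher.

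**Figure D2:**
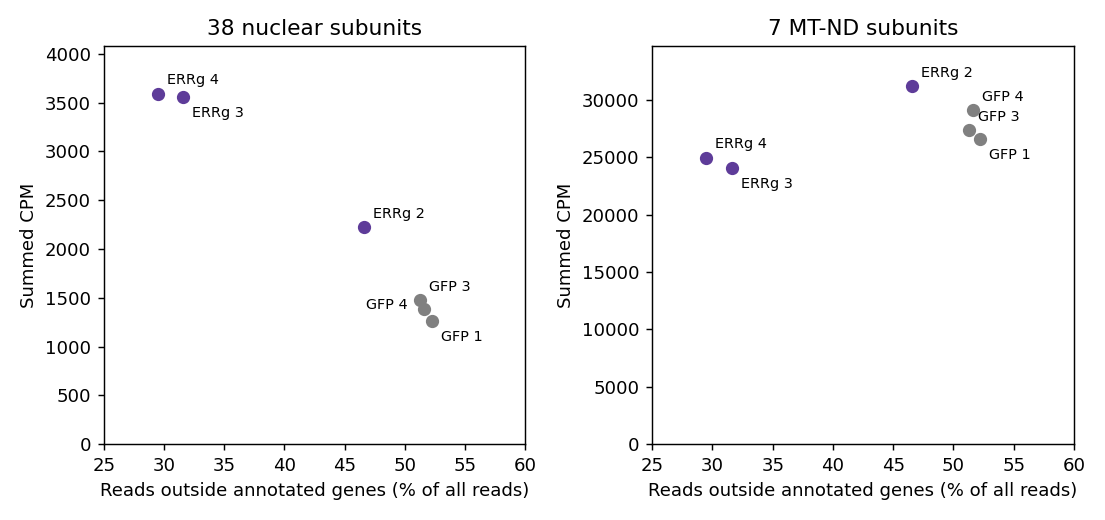
Each point is 1 library, placed by the percent of its reads outside annotated genes and by the summed CPM of the 38 nuclear subunits (left) or of the 7 MT-ND subunits (right). The nuclear sum runs from 1264 CPM in GFP replicate 1 to 3594 CPM in ERRg replicate 4, while the MT-ND sum is highest in ERRg replicate 2.

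The core subunits carry the flavin, the iron-sulfur clusters and the ubiquinone site. Of the 7 encoded in the nucleus, 6 were tested, 4 were called higher and the median log2 fold change was 1.15. NDUFV1 (chr11:67605653-67612554, plus strand, GRCh38) holds the flavin where NADH is oxidized. It measured 47.5, 55.3 and 51.4 CPM with GFP and 91.6, 132.6 and 143.1 CPM in ERRg replicates 2, 3 and 4. Its log2 fold change was 1.25 (SE 0.15, adjusted p = 0.00014), with all ERRg libraries above all GFP libraries.

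NDUFS3, a core subunit of the arm's ubiquinone-reducing module (chr11:47565336-47584562, plus strand), rose from 21.9, 28.1 and 27.4 CPM to 43.8, 76.9 and 75.5 CPM, with a log2 fold change of 1.34 (SE 0.20). Its lowest ERRg library exceeded its highest GFP library.

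NDUFS8 and NDUFS7 bind the clusters that hand electrons to ubiquinone. NDUFS8 (chr11:68030617-68036644, plus strand) went from 25.5, 28.1 and 29.5 CPM with GFP to 57.9, 87.3 and 98.1 CPM with ERRg. Its log2 fold change of 1.55 (SE 0.17, adjusted p = 8.6e-05) was the largest among the core genes. NDUFS7 (chr19:1383527-1395589, plus strand) was counted at only 48, 55 and 44 reads with GFP and 49, 77 and 68 reads with ERRg. The groups did not overlap after scaling, but the log2 fold change of 0.35 (SE 0.21) had an adjusted p of 0.19.

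NDUFV2, which carries a cluster next to the flavin, was the 1 subunit whose libraries moved the other way. It was counted at 291, 324 and 361 reads with GFP (10.3, 10.5 and 10.9 CPM) and 254, 251 and 270 reads with ERRg (9.50, 7.46 and 7.92 CPM). All ERRg libraries were below all GFP libraries. The log2 fold change of -0.35 (SE 0.13, adjusted p = 0.042) was short of the 1.5-fold limit, so the gene was not called. It was -0.14 after the GC and length correction and was called lower with library size as the only scaling. Most of its transcript, 90.0% of the bases, is shared with exons of another annotated gene on the same strand (ENSG00000265257), which had 0 counts in all libraries. Reads in such shared exons are ambiguous for a counter that needs a single gene. In addition, 48.3% of its 31-base words occur elsewhere on the main chromosomes. Its processed copy NDUFV2P1 was counted at 34, 21 and 26 reads with GFP and 38, 62 and 79 reads with ERRg (log2 fold change 1.08, SE 0.29, adjusted p = 0.010), and how reads divide between the pair is uncertain.

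NDUFS1, the largest core subunit (chr2:206114817-206159509, minus strand), had 0, 0 and 1 reads with GFP and 0, 0 and 0 reads with ERRg. It therefore stood at or under 3 counts in every library, and no fold change was computed. Unlike for the other genes at or near 0, no alternate contig held 80% of its 31-base words, and 9.07% of them were found on any such contig.

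Of the 9 accessory subunits of the peripheral arm, 8 were tested and 6 were called higher, with a median log2 fold change of 0.85. NDUFS6, a zinc-binding subunit (chr5:1801407-1816048, plus strand), led this group. It measured 24.2, 32.5 and 27.1 CPM with GFP and 56.9, 97.7 and 94.8 CPM with ERRg, a log2 fold change of 1.57 (SE 0.19, adjusted p = 0.00015). NDUFA2, a thioredoxin-like subunit, followed with 10.3, 11.6 and 9.21 CPM against 17.8, 32.8 and 32.6 CPM (1.43, SE 0.21, adjusted p = 4.0e-04), also without overlap. Behind it were NDUFA12 at 1.21 (SE 0.15) and NDUFV3, which binds beside the flavin subunit, at 0.98 (SE 0.13).

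The smallest called rises of this arm were those of NDUFA9 and NDUFS4. NDUFA9, which sits near the ubiquinone site, went from 15.8, 13.5 and 15.0 CPM to 20.5, 26.6 and 24.7 CPM, a log2 fold change of 0.70 (SE 0.12, adjusted p = 0.00099). NDUFS4, a frequent site of inherited complex I deficiency, went from 26.4, 27.0 and 27.2 CPM to 34.9, 51.2 and 46.8 CPM (0.72, SE 0.13, adjusted p = 0.0014). Neither gene's groups overlapped.

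NDUFA5 (chr7:123536997-123557904, minus strand) was among the steadier subunits at 61.5, 66.0 and 60.9 CPM with GFP and 73.8, 73.9 and 77.5 CPM with ERRg. Its groups did not overlap and its adjusted p was 0.032, but its log2 fold change of 0.26 (SE 0.09) was below the limit. After the GC and length correction it was 0.62 and was called. NDUFA7 was counted at 38, 59 and 70 reads with GFP and 51, 50 and 77 reads with ERRg, a log2 fold change of 0.07 (SE 0.24, adjusted p = 0.84) with overlapping groups. NDUFA6 (chr22:42085526-42090884, minus strand) had 0 counts in all 6 libraries, and 3 alternate contigs of the assembly each hold at least 80% of its 31-base words.

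The accessory subunits of the proximal membrane arm gave 7 calls higher among 8 tested, with a median log2 fold change of 1.11. NDUFA8 and NDUFS5 are cysteine-rich proteins on the intermembrane space side. NDUFA8 rose from 21.9, 28.3 and 27.4 CPM to 48.0, 75.8 and 80.4 CPM (log2 fold change 1.40, SE 0.18, adjusted p = 2.0e-04). NDUFS5 rose from 75.5, 92.0 and 80.1 CPM to 136.2, 252.8 and 249.4 CPM (1.37, SE 0.20, adjusted p = 0.00043). In both, ERRg replicate 2 was lowest of its group and still above every GFP library. NDUFC2 rose from 10.2, 14.3 and 12.1 CPM to 20.05, 30.1 and 27.7 CPM (1.09, SE 0.17, adjusted p = 0.00048), and NDUFC1 and NDUFA1 by 1.16 and 1.13 on the log2 scale.

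NDUFA10 (chr2:239892450-240025743, minus strand), a kinase-like subunit, was the steadiest gene of the family between controls, at 103.5, 103.4 and 103.4 CPM with GFP. With ERRg it measured 114.4, 132.5 and 140.8 CPM, without overlap. Its log2 fold change of 0.32 (SE 0.10, adjusted p = 0.023) was below the 1.5-fold limit. NDUFA13, also named GRIM-19, was called at 0.59 (SE 0.19, adjusted p = 0.026), with 2.66, 3.04 and 3.05 CPM against 4.41, 3.51 and 5.31 CPM. It lost the call after the GC and length correction, at 0.40, and also in 4 of 6 leave-one-out fits, namely when GFP replicate 1, 3 or 4 or ERRg replicate 4 was dropped. NDUFA11 was called at 0.80 (SE 0.18, adjusted p = 0.0038), with 4.93, 4.07 and 4.05 CPM against 5.91, 7.90 and 8.83 CPM.

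NDUFA3 (chr19:54102728-54109257, plus strand) had 0, 4 and 5 reads with GFP and 9, 15 and 18 reads with ERRg and did not pass the filter. The ERRg libraries were all above the GFP libraries, and with no filter the gene was called higher (adjusted p = 0.0027). All of its 31-base words are also on alternate contigs, of which 9 hold at least 80% of them. Whether the authors aligned to these contigs is not given in the sources used here, and the part of the copies in the low counts was not tested.

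All 11 accessory subunits of the distal membrane arm, NDUFB1 to NDUFB11, were called higher, from 0.88 for NDUFB3 to 1.62 for NDUFB9, with a median log2 fold change of 1.31. This module is the far end of the membrane arm. NDUFB9 measured 43.6, 54.9 and 48.4 CPM with GFP and 105.7, 172.9 and 172.3 CPM with ERRg (SE 0.18, adjusted p = 8.7e-05). NDUFB7 (chr19:14566078-14572066, minus strand) rose from 13.5, 18.2 and 17.9 CPM to 32.5, 53.8 and 64.9 CPM (1.61, SE 0.22, adjusted p = 0.00026). NDUFB11 (chrX:47142071-47145466, minus strand) rose from 28.5, 34.8 and 33.3 CPM to 66.4, 112.7 and 114.9 CPM (1.61, SE 0.19, adjusted p = 0.00012). All 3 were at least 3-fold higher, and no GFP library reached any ERRg library in the 11 genes.

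At the lower end of the same arm, NDUFB3 went from 26.04, 29.8 and 28.8 CPM to 35.7, 61.3 and 58.1 CPM (0.88, SE 0.18, adjusted p = 0.0022). NDUFB6 reached 0.91 (SE 0.16) and NDUFB4 1.02 (SE 0.17). NDUFB2 rose from 50.3, 63.4 and 57.7 CPM to 95.3, 167.4 and 169.3 CPM (1.33, SE 0.20, adjusted p = 0.00038), without overlap. NDUFB5, NDUFB1 and NDUFB10 were called at 1.16, 1.31 and 1.46. NDUFB8, a subunit often used as a protein marker of assembled complex I, was counted low at 8.37, 9.08 and 7.16 CPM with GFP and 13.1, 18.2 and 19.9 CPM with ERRg (1.06, SE 0.16, adjusted p = 0.00052).

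The last members by symbol have roles beyond the arms. NDUFAB1, the mitochondrial acyl carrier protein, rose from 40.3, 48.1 and 44.2 CPM to 95.8, 149.1 and 142.9 CPM (log2 fold change 1.55, SE 0.16, adjusted p = 6.0e-05). NDUFA4, since assigned to complex IV, rose from 123.1, 152.9 and 146.2 CPM to 244.8, 486.6 and 473.8 CPM (1.51, SE 0.22, adjusted p = 4.0e-04). In both genes the ERRg libraries were all above the GFP libraries.

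**Figure D3:**
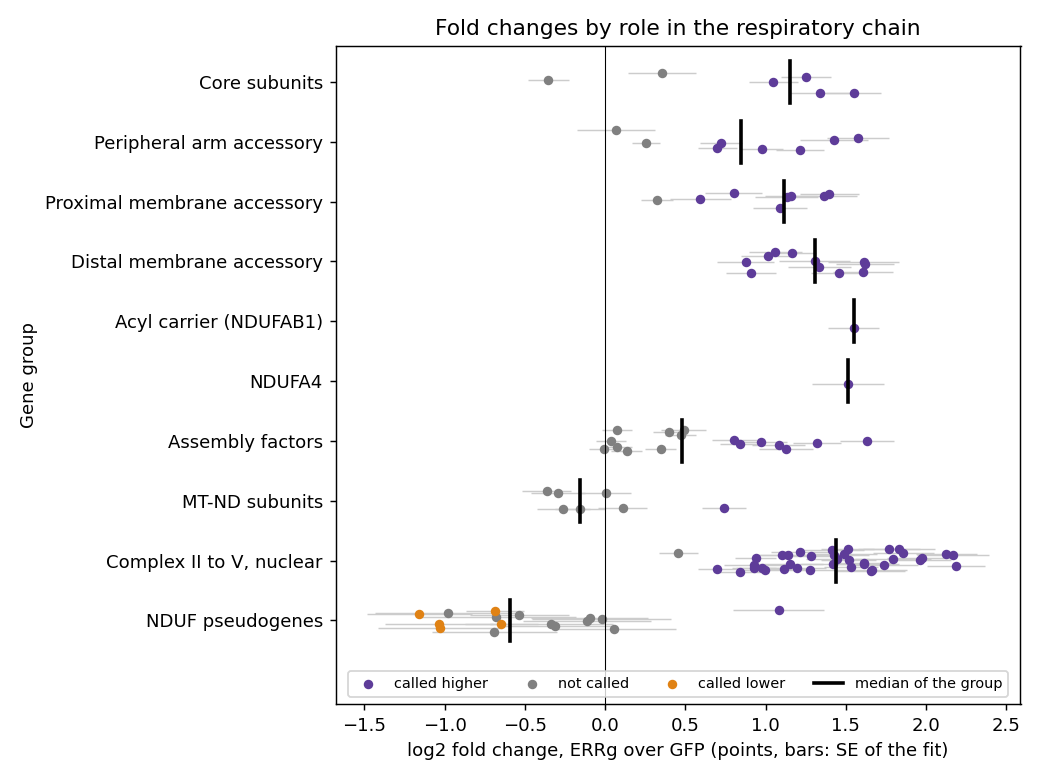
Each point is 1 tested gene at its log2 fold change, ERRg over GFP, with its SE as a grey bar, and the black line is the median of its group. The distal membrane arm has a median of 1.31 with all 11 genes called higher, the MT-ND subunits have a median of -0.16, and NDUFV2 is the core gene below 0.

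The subunits that were low or uncalled were compared with the annotation. Over 20% of the canonical transcript was shared with exons of other annotated genes, on either strand, for 10 of the 38 genes. The share was above 50% for NDUFV2 (90.0%), NDUFA13 (83.9%), NDUFA7 (77.9%), NDUFB8 (72.0%), NDUFA11 (68.2%) and NDUFS7 (51.3%). Of these 6, 3 were called higher, and their levels were 2.12 to 12.3 CPM per kb of transcript with GFP. The other 4, NDUFA2, NDUFB2, NDUFB9 and NDUFC2, shared 22.3% to 27.4% and were all called higher. For NDUFS7, NDUFA2, NDUFB2 and NDUFB9 the partner lies on the opposite strand, which would cost no reads in a strand-aware count. The strand setting of the counting is not given in the sources used here. Chromosome 19 holds 6 members, and 5 of them, NDUFA3, NDUFA7, NDUFA11, NDUFA13 and NDUFS7, have such an overlap or a copy.

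When these 10 genes, the 2 with copies and NDUFS1 were set aside, 25 subunits remained, of which 23 were called higher. All 25 had every ERRg library above every GFP library and ERRg replicate 2 in between. The first trait held for 41.9% of tested protein-coding genes, and the share for the second is not given here. The median log2 fold change of the 25 was 1.21. Among the 10 tested genes set aside, 7 were called higher and the median was 0.93. The 2 uncalled genes of the 25 were NDUFA5 and NDUFA10.

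Levels per kilobase of transcript spanned a wide range within the complex. Over the 25 genes they ran from 1.77 CPM per kb for NDUFA9 to 167 CPM per kb for NDUFS5 with GFP, with a median of 39.8. With ERRg they ran from 2.87 to 430 CPM per kb with a median of 94.3, again from NDUFA9 to NDUFS5. The range depends on the annotated length of the canonical transcript, 8356 bases for NDUFA9 and 495 bases for NDUFS5. Before division by length, their GFP means were 14.8 and 82.5 CPM. Which transcripts the cells made was not measured. The order of the genes was similar in both groups, with a Spearman rho of 0.95 across the 25 genes, which share libraries and transcript lengths. The spread between genes was 1.41 with GFP and 1.62 with ERRg, as the SD of log2 CPM per kb. Across the 35 tested members the log2 fold change had a Spearman rho of -0.40 with the overlap share, -0.27 with transcript length, 0.27 with GC content and 0.28 with the GFP level. These 4 values describe genes within the same libraries and were not tested.

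**Figure D4:**
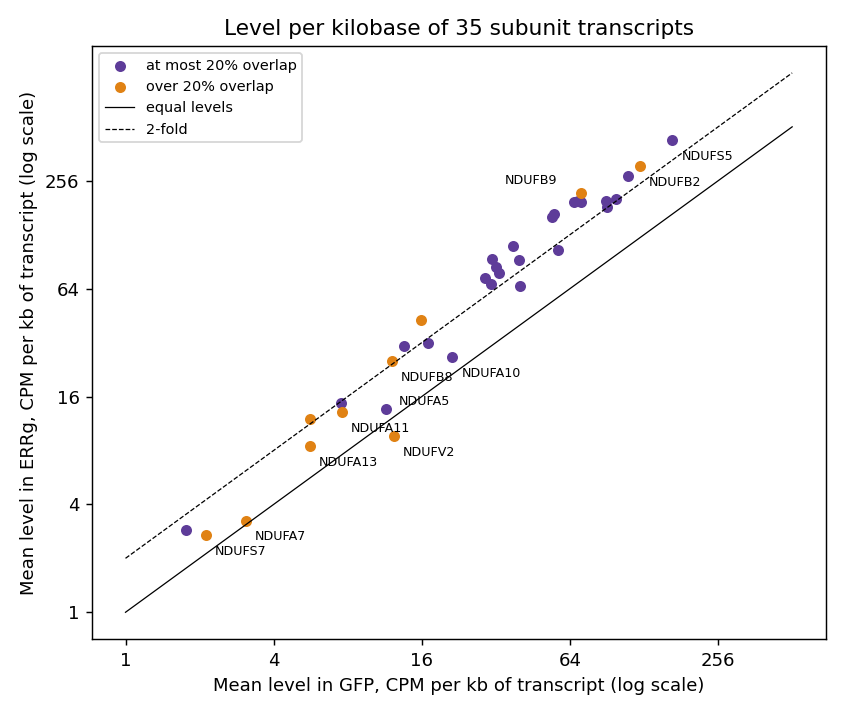
Each point is 1 of the 35 tested subunits at its mean level with GFP and with ERRg, in CPM per kb of canonical transcript (both axes log), coloured by whether more than 20% of the transcript overlaps other genes. NDUFS5 is at the top right with 167 and 430 CPM per kb, and NDUFV2 is below the line of equal levels.

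Promoters of the members were searched for short motifs of factors known to bind respiratory chain genes. RefSeq promoters on GRCh38.p14, 250 bases before to 50 bases after the start, were held for 32 of the 38 members. NDUFA4, NDUFB5, NDUFB9, NDUFC2 and NDUFS5 were among those without one. Both strands were searched for the ERR element TNAAGGTCA, the NRF1 core GCGCATGCG, the ETS core CCGGAAGT and the YY1 core AAGATGGCG. Only exact matches within these windows were counted, with N as any base. Variant sites and sites outside the windows were not searched, so a gene without a match may still hold a site. The ERR element was found in 1 of the 32 members (NDUFB4), in 0.951% of all 35116 promoters and in 0.671% of the 22198 protein-coding ones. The NRF1 core was found in 4 members, NDUFA8, NDUFB4, NDUFS6 and NDUFS7 (12.5%, against 1.92% of all and 2.36% of protein-coding promoters). The ETS core was found in NDUFA13 and NDUFS1 (6.25%, against 4.14% of all and 5.33% of protein-coding promoters), and 22 members held none of the 4 motifs. Members without the ERR element had log2 fold changes from -0.35 to 1.61. The windows below are shown because they place an ERR element and NRF1 cores in genes of small, middle and large response. Each is read on the gene's strand, and capitals mark the motif.
NDUFB4 ERR element, chr3:120596265-120596333, plus strand, 41 bases before the start: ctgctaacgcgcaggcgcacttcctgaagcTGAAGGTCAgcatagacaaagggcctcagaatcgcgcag
NDUFS6 NRF1 core, chr5:1801331-1801399, plus strand, 46 bases before the start: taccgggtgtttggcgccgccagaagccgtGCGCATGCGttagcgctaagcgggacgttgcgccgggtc
NDUFS7 NRF1 core on the opposite strand, chr19:1383803-1383871, plus strand, 74 bases before the start: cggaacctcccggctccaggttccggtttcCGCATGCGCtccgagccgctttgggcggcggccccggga

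These printed genes ranged widely in response. NDUFS6 was among the largest rises at 1.57, NDUFB4 stood at 1.02, and NDUFS7 was not called at 0.35. The YY1 core was found in 5 members (15.6%, against 1.75% of all and 2.41% of protein-coding promoters). They were NDUFA6, NDUFA7, NDUFA9, NDUFS4 and NDUFS7, each time 11 to 26 bases after the start. The 4 of them that were tested had log2 fold changes of 0.07, 0.70, 0.72 and 0.35, a median of 0.53 against 1.21 for the 25 other tested members with a promoter. NDUFA7 and NDUFS7 are among the genes whose transcripts overlap others, and this difference was not tested. In NDUFA8 and NDUFB4 the NRF1 core was matched on both strands, at positions that overlap by all but 1 base.

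The other genes of complex I moved less evenly. The 7 MT-ND subunits, which form the membrane core, had log2 fold changes from -0.36 for MT-ND4L to 0.74 for MT-ND3, and 1 was called higher. MT-ND3 measured 1444, 1640 and 1573 CPM with GFP and 2213, 2741 and 2830 CPM with ERRg (SE 0.14, adjusted p = 0.0014), without overlap. The other 6 were not called, and their values were -0.36, -0.29, -0.26, -0.16, 0.01 and 0.11 for MT-ND4L, MT-ND4, MT-ND6, MT-ND5, MT-ND2 and MT-ND1. Their summed CPM was 26551 to 29144 with GFP, 31177 in ERRg replicate 2, and 24042 and 24971 in ERRg replicates 3 and 4. The groups overlapped for all 6, and ERRg replicate 2 was the highest ERRg library in each. MT-ND3 was not called with library size as the only scaling or with the covariate for reads outside genes, and the signs of the other 6 turned under some settings.

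As a percent of the MT-ND sum, the nuclear sum was 4.76%, 5.38% and 4.74% with GFP and 7.15%, 14.8% and 14.4% with ERRg. This ratio lies within each library and so does not depend on the scaling between libraries. All 3 ERRg libraries were above all 3 GFP libraries, and an exact permutation test of 3 against 3 libraries cannot give a two-sided p below 0.1.

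Of 16 assembly factors, which build the complex but are not part of it, 7 were called higher and 0 lower, with a median log2 fold change of 0.48. Among tested protein-coding genes 25.9% were called higher and 12.4% lower. NDUFAF8 was the highest, at 25.3, 31.2 and 29.3 CPM with GFP and 64.7, 96.4 and 104.5 CPM with ERRg (1.63, SE 0.17, adjusted p = 6.0e-05). NDUFAF6 stood at the other end at 19.7, 21.5 and 21.5 CPM against 20.7, 20.1 and 21.6 CPM (-0.01, SE 0.10), with overlapping groups. Among 38 nuclear subunits of complexes II to V, 37 were called higher with a median of 1.44, from 0.46 for SDHD, the uncalled gene, to 2.19 for ATP5MC1, a c subunit of ATP synthase. With the covariate for reads outside genes, 2 assembly factors and 20 of these subunits were called. Neither list was compared with complex I by a test.

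Processed copies of the subunit genes were counted at low levels. Of 57 NDUF pseudogenes in the table, 16 passed the filter, 1 (NDUFV2P1) was called higher and 5 lower, with a median log2 fold change of -0.59. Among all tested genes 17.3% were called higher and 16.8% lower. The shares among tested genes that are not protein-coding are not given here, so these counts are not read as a trait of the copies. After the GC and length correction 1 was called higher and 2 lower. The summed level of the pseudogenes was 16.9 to 18.3 CPM with GFP and 16.3, 12.5 and 12.1 CPM in ERRg replicates 2, 3 and 4. NDUFA3P1, a copy of the gene that was nearly uncounted, had 82, 98 and 111 reads with GFP and 56, 59 and 69 reads with ERRg (-0.69, SE 0.18, adjusted p = 0.0097). NDUFA4L2, a relative of NDUFA4 outside the complex, was not called at 0.63 (SE 0.25, adjusted p = 0.062).

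Among the regulators of respiratory chain genes, ESRRA, the gene of the related receptor ERRα, rose from 13.1, 12.3 and 11.0 CPM to 38.2, 47.4 and 51.6 CPM (log2 fold change 1.92, SE 0.13, adjusted p = 5.6e-06). The coactivators PPRC1 and PPARGC1B were called at 1.01 (SE 0.10) and 0.74 (SE 0.20), while PPARGC1A was at 0.33 (SE 0.35, adjusted p = 0.47). PPARGC1B was not called without GFP replicate 1 (0.63) or without ERRg replicate 3 (0.60), with library size as the only scaling (0.42) or with the covariate for reads outside genes (0.56). GABPA, the DNA-binding subunit of the ETS factor NRF2, was lower at 40.6, 41.2 and 37.5 CPM against 27.8, 24.6 and 21.98 CPM (-0.68, SE 0.11, adjusted p = 0.00057). GABPA was not called after the GC and length correction (-0.36) or with the covariate for reads outside genes (-0.42). NRF1, TFAM, YY1 and GABPB1 were not called, at 0.16, 0.24, 0.28 and -0.04. ESRRB was counted at 2, 2 and 4 reads with GFP and 7, 26 and 18 reads with ERRg and did not pass the filter. In the regulators that were called, no ERRg library overlapped a GFP library.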

How the data were processed

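The authors' table holds raw counts, whole numbers per gene, from 6 libraries. The submitters' processing notes name CASAVA, Trim Galore 0.6.7, STAR 2.7.9a, HTSeq 0.11.3 and GRCh38. The annotation release and strand setting are not given in the sources used here. Gene identifiers were matched to GENCODE release 44 (90.1% found), and its canonical transcripts gave length, GC content and overlaps. Words of 31 bases were looked up in 261 alternate contigs.

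Counts were filtered (filterByExpr, 24500 genes), scaled by TMM and compared with the quasi-likelihood test of edgeR 4.0.16 in R 4.3.3, in 1 fit of all 6 libraries. Alternatives were DESeq2 1.42.0, other scalings, filters and cutoffs, protein-coding genes only, GC and length curves (mgcv 1.9.3; values for 98.9% of tested genes), a covariate for the reads outside genes, replicate blocks and each library left out. On simulated data of 24500 genes in 3 against 3 libraries, edgeR recovered 200 of 200 changed genes with 10 false calls, and DESeq2 recovered 196 with 0. The simulation gave every gene the same dispersion and had no library set apart like ERRg replicate 2. It therefore checks that the code runs as intended and does not measure recovery in these libraries. Python 3.11.15 made the tables and plots.

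Members and lists were chosen with earlier results of these data known. Named by rule, with values per library, were core subunits, the 5 largest and 5 smallest changes, uncalled or filtered members and members with over 20% overlap. Regulators, MT-ND genes and the extremes of other lists were named with at least their log2 fold change or counts. The pseudogenes and the other members named were chosen after their values were seen. Of the members that the rule selects, 1 is not reported here by name.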

Additional observations from a re-analysis of the deposited data

Results flagged for a closer look

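Among the entries outside the gene rows of the table, those for ambiguous and for multiply aligned reads were higher in every Ad CMV 3xFlag-Esrrg library than in any Ad CMV GFP library, while reads on no gene were lower. Ambiguous reads, those in exons shared by several genes, made up 5.69%, 9.84% and 9.79% of all reads in ERRg replicates 2, 3 and 4, and 4.55% to 4.87% in the GFP libraries. Reads aligned to several places made up 9.33%, 12.7% and 13.0% in the same ERRg libraries, and 7.16% to 7.41% in the GFP libraries. How many reads of complex I genes these entries hold was not measured.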

How the results depend on the processing

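Of 665 values of single subunits under the alternatives, 601 kept their direction and their side of the thresholds, 50 lost the call, 6 gained it and 8 turned direction. The settings with no fold cutoff and with a 2-fold cutoff reused the main fit, so under them no direction could turn. A 2-fold cutoff could only lose calls. Over all alternatives but the covariate, 23 to 32 subunits were called higher. The share of protein-coding genes called higher is given above only for the main fit, the covariate fit and the GC and length correction. Counts under the other settings therefore stand without a background. With a covariate for reads outside genes, 10 of the 35 subunits were called higher at a median of 0.50, with 0 MT-ND subunits, 2 assembly factors and 20 subunits of complexes II to V. That share did not overlap between the groups, so it cannot be told apart from the treatment, and the cause was not tested. With library size as the only scaling the median was 0.82, 1 subunit was lower and 0 MT-ND subunits were higher. With no fold cutoff, 1 subunit (NDUFV2) was lower and 11 assembly factors were higher. With a 2-fold cutoff, 0 MT-ND subunits and 4 assembly factors were higher, and the test against 1.5-fold left 0 MT-ND subunits. Each library left out in turn gave 29 to 31 subunits and a median of 1.05 to 1.46. The numbers 3 and 4 are shared by both groups. Deviations of same-numbered libraries had r = 0.075 and -0.0001. The crossed pairs had r = 0.10 (GFP 3 with ERRg 4) and 0.018 (GFP 4 with ERRg 3). With so few pairs these values cannot show whether the libraries were paired. With the replicate block, 29 subunits were higher at a median of 1.32, and with the block and the GC and length correction the median was 1.41. In these block fits GFP replicate 1 and ERRg replicate 2 each form a block of their own. They add nothing to the group effect, which rests on replicates 3 and 4 with 1 residual degree of freedom. In the 25 subunits with few overlaps, a choice made after seeing the data, 23 were higher.

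Some uncalled genes turned sign. With library size only these were NDUFA5 (-0.062), NDUFA7 (-0.25), NDUFA10 (-0.0070), MT-ND1 (-0.19), MT-ND2 (-0.29), NRF1 (-0.16), TFAM (-0.083) and YY1 (-0.048). With protein-coding genes only they were NDUFA7 (-0.072), MT-ND1 (-0.019) and MT-ND2 (-0.12), and with the replicate block NDUFA7 (-0.11), MT-ND1 (-0.048) and MT-ND2 (-0.17). MT-ND2 was at -0.021 with 10 counts in every library. With the covariate they were MT-ND4 (0.12), MT-ND4L (0.11), MT-ND5 (0.27), MT-ND6 (0.31) and GABPB1 (0.013). With the GC and length correction they were MT-ND4L (0.033), MT-ND6 (0.10), GABPB1 (0.26) and NDUFAF6 (0.10). Adding the block gave 0.046, 0.040, 0.30 and 0.095 for these, and -0.14 for NDUFA7. DESeq2 and RLE factors gave 0.037 for GABPB1 and 0.072 for NDUFAF6, which was at 0.00019 with no filter. Libraries left out in turn gave -0.095 to 0.22 for NDUFA7, -0.028 to 0.093 for MT-ND2, -0.082 to 0.050 for GABPB1 and -0.049 to 0.11 for NDUFAF6. The cause was not tested for these.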
